A study of Rattus norvegicus and Mus musculus with 34 samples.

Results

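Sarcomeres are the repeating contractile units of striated muscle, and the 42 genes described here encode their filaments, the regulators of those filaments and the calcium and energy machinery that serves them. The members were listed by gene symbol, in a list drawn up with earlier results of these data known, and all 42 were among the 20022 genes of the rat tables. They were grouped by known use into 14 isoforms of fast fibres, 3 of slow fibres that the adult heart does not use, 5 that slow fibres share with the heart, 15 genes of both fibre types and 5 genes that cells outside striated muscle also use.

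The RNA came from the healing tissue of a bone defect that was cut into the mandible beside the molars of wild-type male Sprague-Dawley rats that were some weeks old, and the labels call the sampled cells mixed. In the intact groups the inferior alveolar nerve, the sensory nerve of the lower jaw, was left in place (sensory nerve+). In the transected groups a piece of that nerve was removed in the same operation (sensory nerve-). All rats carried the defect and received penicillin, and tissue was taken at day 3, 7 or 14 from 4 rats per group, except that 3 intact rats were given for day 3. The 4 transected rats of day 7 were deposited separately from all other rats, so transection at day 7, and time in the transected arm where day 7 takes part, cannot be told apart from anything that set the 2 deposited tables apart.

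In a sarcomere, thick filaments of myosin pull on thin filaments of actin, and troponin and tropomyosin on the thin filament open the sites for myosin when calcium leaves the sarcoplasmic reticulum. Fast and slow fibres build the same machine from different isoforms, and several slow isoforms are shared with the ventricle of the heart. Muscles of mastication attach to the mandible, and muscle that is being formed or repaired uses embryonic and perinatal myosins before adult ones.

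Library totals lay between 14854389 and 18742274 expected counts per rat, and levels are given as CPM, counts scaled to a common library size with TMM factors (trimmed mean of M-values). Fewer muscle fibres in a sample and less RNA per fibre cannot be told apart in tissue RNA. Transcript lengths were not used, so a level is compared between rats and never between genes. Transcripts of Myh1, Myh2 and Myh4, and of Acta1 and the other actins, are alike enough that reads could be divided between them in counting, and values of single members of these sets are uncertain to that extent. The heart-specific genes Myh6, Tnni3 and Nppa stayed at or below 5.47, 2.25 and 0.196 CPM in every rat. Of the other genes listed as restricted to the adult heart, Actc1 reached 1321 and Tnnt2 198 CPM, and developing skeletal muscle also uses both. Haemoglobin gene Hba-a1 took between 0.1301% and 23.4% of a library's counts.

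The 42 genes took a small part of the RNA at day 3 and a far larger and more variable part later. At day 3 they held 0.117, 0.1302 and 0.151% of counts in the 3 intact rats and 0.119, 0.138, 0.177 and 0.285% in the 4 transected rats. At day 7 they held 3.32, 4.89, 1.87 and 3.42% in the intact rats and 9.21, 1.10, 1.95 and 0.540% in the transected rats. At day 14 they held 6.64, 0.165, 3.24 and 3.94% in the intact rats and 0.107, 0.469, 0.820 and 0.113% in the transected rats. Every day-7 rat therefore lay above every day-3 rat. At day 14 intact rat 2 lay within the range of day 3 for all 42 genes together, and transected rats 1 and 4 lay just below it. Most of the day-3 percentage came from the 5 genes also used outside striated muscle. The other 37 genes held 0.00442% to 0.0155% in the rats of day 3, except 0.104% in transected rat 4. At day 14 they held 0.0591% in intact rat 2 and 0.0343 and 0.0431% in transected rats 1 and 4. By these genes, the same rats of day 14 lay above all day-3 rats except that 1. A few rats stood apart from their groups. Transected rat 4 of day 3 had the highest level of its group for 34 of the 42 genes, and transected rat 1 of day 7 and transected rat 3 of day 14 had it for 41 each. Intact rat 2 of day 14 had the lowest level of its group for 41 genes, all except Tpm3.

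**Figure D1:**
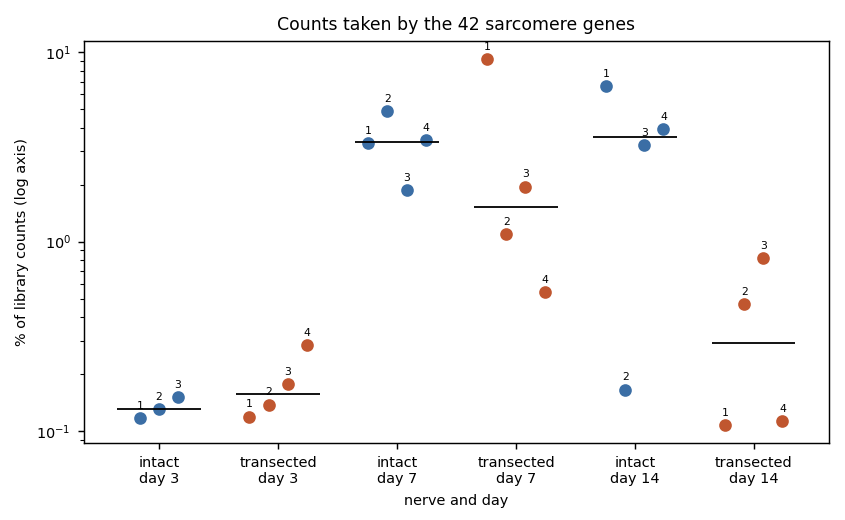
Percent of each library's counts taken by the 42 sarcomere genes (log axis), by nerve and day. Each point is a rat with its replicate number, blue for intact and orange for transected, and the line is the group's median. Values at day 3 lie between 0.117% and 0.285%, and those at day 14 run from 0.107% to 6.64%.

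**Figure D2:**
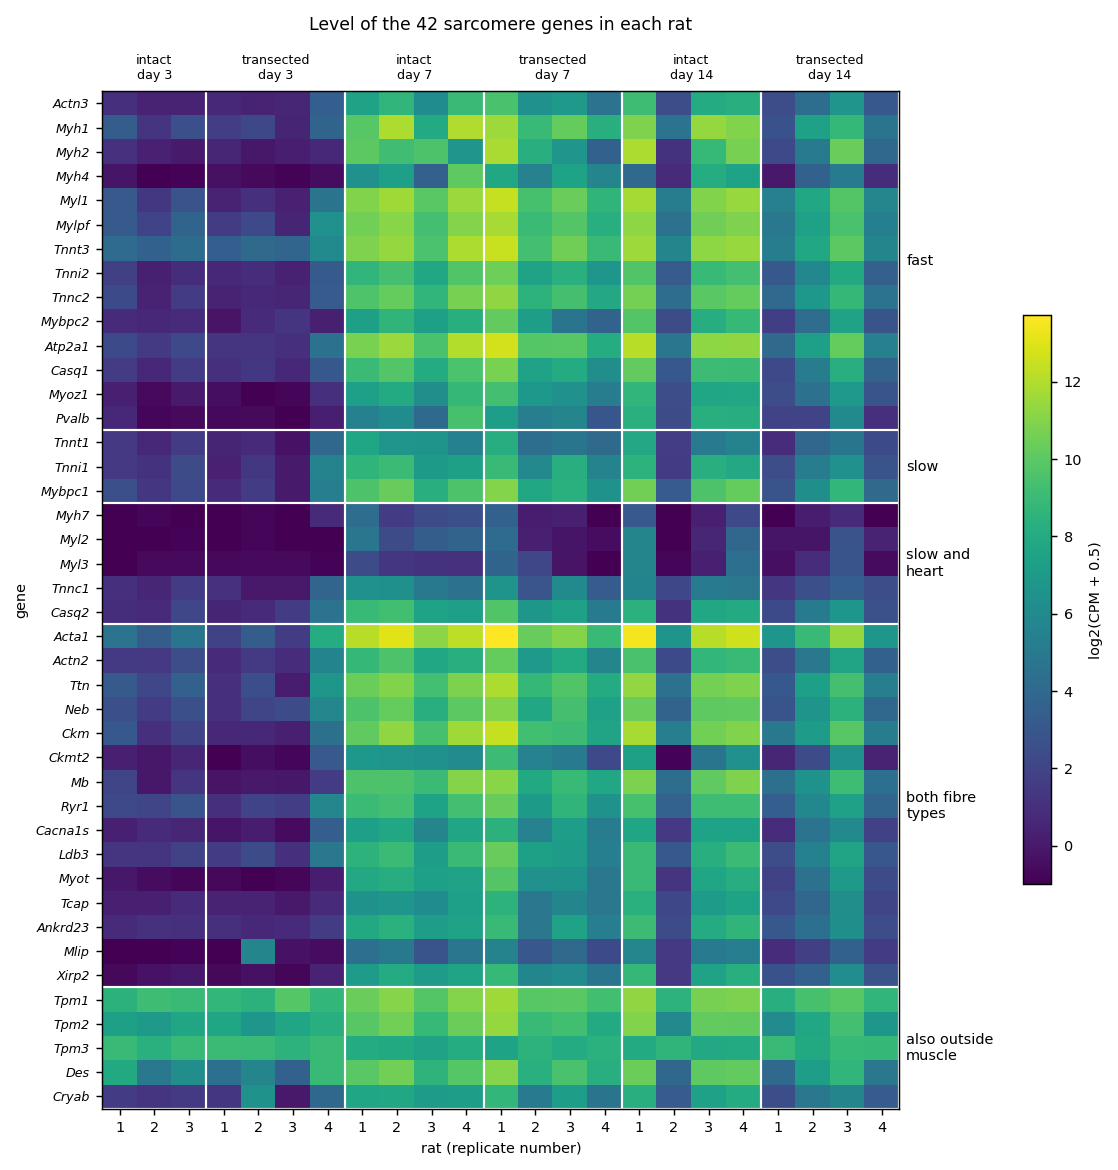
Level of each of the 42 genes (rows, by class) in each of the 23 rats (columns, by group), as log2(CPM + 0.5). Colours compare rats within a row, because lengths were not taken into account. Rows of fast isoforms are dark at day 3 in all rats and light at day 7, and intact rat 2 of day 14 is dark in a light group.

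The promoters of Acta1 and of fast and slow troponin I are shown because these genes rose together from day 3 to day 7 with the nerve intact, and that of Tpm3 because it did not. Promoters in RefSeq were matched for 34 of the 42 members, each as 300 bases around the start on the GRCr8 build, which is not the build of the counts. Only the first promoter listed for a gene symbol was used, so any other promoter of a gene was not searched. The E-box CANNTG, to which myogenic regulators bind, was in 29 of the 34 (85.3%) and in 71.6% of all 27457 promoters. The MCAT motif CATTCC, on either strand, was in 9 (26.5%) against 13.9%. A CArG box was in 4 (11.8%), those of Acta1, Ldb3, Myh4 and Myl3, against 1.64%. Of the other motifs searched, a MEF2 site was in 2 (5.88%), those of Ttn and Xirp2, against 0.605%. The E-box form CAGCTG was in 11 (32.4%) against 15.1%, and TATAAA, on either strand, in 10 (29.4%) against 14.3%. These are letters found in a window and not sites shown to be bound. The 250 bases before each start are given 5′ to 3′ on the gene's own strand, and capitals mark matches of 3 motifs, the E-box, MCAT and the CArG box. Acta1 holds all 3 motifs, and the fast and slow troponin I genes and Tpm3 hold, of these 3, the E-box alone. The windows are chr19:68784195-68784444 (minus strand) for Acta1, chr1:207024240-207024489 (plus) for Tnni2, chr13:49781279-49781528 (plus) for Tnni1 and chr2:177814633-177814882 (plus) for Tpm3.
Acta1: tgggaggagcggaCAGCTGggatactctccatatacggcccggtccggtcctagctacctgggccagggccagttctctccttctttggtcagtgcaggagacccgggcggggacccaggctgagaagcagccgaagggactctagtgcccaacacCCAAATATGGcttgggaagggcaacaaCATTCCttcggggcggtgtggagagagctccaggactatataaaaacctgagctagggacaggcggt
Tnni2: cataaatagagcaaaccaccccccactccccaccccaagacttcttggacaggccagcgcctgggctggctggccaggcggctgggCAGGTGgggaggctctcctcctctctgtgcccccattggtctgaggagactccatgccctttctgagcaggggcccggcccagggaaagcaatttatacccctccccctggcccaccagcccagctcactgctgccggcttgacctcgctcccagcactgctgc
Tnni1: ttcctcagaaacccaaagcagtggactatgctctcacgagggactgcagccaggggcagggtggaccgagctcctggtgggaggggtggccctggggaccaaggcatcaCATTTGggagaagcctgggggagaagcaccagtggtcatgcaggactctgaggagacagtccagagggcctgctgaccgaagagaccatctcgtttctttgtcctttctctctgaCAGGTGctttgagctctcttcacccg
Tpm3: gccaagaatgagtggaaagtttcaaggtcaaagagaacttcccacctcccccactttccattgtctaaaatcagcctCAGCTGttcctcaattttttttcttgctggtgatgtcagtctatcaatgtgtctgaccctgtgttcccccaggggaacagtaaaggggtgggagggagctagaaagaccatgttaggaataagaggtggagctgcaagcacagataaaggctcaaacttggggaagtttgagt

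Acta1, skeletal alpha-actin and the body of the thin filament, stood at 23.5, 9.81 and 26.3 CPM in the 3 intact rats of day 3, at 4531, 8567, 2265 and 4840.0 CPM in the 4 of day 7 and at 11187, 98.3, 4497 and 6543 CPM in the 4 of day 14. Acta1 in the transected rats was at 3.08, 9.50, 2.61 and 272 CPM on day 3, at 13491, 1259, 2025 and 482 CPM on day 7 and at 107, 509, 2642 and 112 CPM on day 14. Day-7 rats did not overlap with day-3 rats in either arm, and the intact and transected rats overlapped on each day. Ckm, the cytosolic creatine kinase that regenerates ATP beside the filaments, stood at 7.85, 1.52 and 3.59 CPM in the 3 intact rats of day 3, at 1139, 2471, 705 and 3107 CPM in the 4 of day 7 and at 3596, 38.2, 1536 and 1914 CPM in the 4 of day 14. Ckm in the transected rats was at 1.10, 1.14, 0.746 and 21.0 CPM on day 3, at 5458, 615, 546 and 194 CPM on day 7 and at 30.3, 137, 962 and 37.7 CPM on day 14. The same rats were highest and lowest as for Acta1 at day 14 in the intact arm, where rat 1 led and rat 2 was far below the rest.

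Myosin heavy chains are the motors, and Myh4, Myh1 and Myh2 give fibres of type 2B, 2X and 2A, from faster to slower, while Myh7 gives type 1 fibres and ventricular muscle. Myh4 stood at 0.392, 0 and 0.0513 CPM in the 3 intact rats of day 3, at 88.4, 159, 11.2 and 1085 CPM in the 4 of day 7 and at 15.96, 1.25, 279 and 188 CPM in the 4 of day 14. Myh4 in the transected rats was at 0.290, 0.142, 0.0466 and 0.214 CPM on day 3, at 223, 44.9, 185 and 50.6 CPM on day 7 and at 0.491, 11.2, 31.2 and 1.39 CPM on day 14. Intact rat 4 of day 7 held more Myh4 than any other rat, and it was the highest of its group for 13 of the 42 members. Myh1 stood at 9.61, 1.95 and 5.60 CPM in the 3 intact rats of day 3, at 943, 3863, 256 and 3928 CPM in the 4 of day 7 and at 1846, 23.9, 2634 and 1916 CPM in the 4 of day 14. Myh1 in the transected rats was at 2.67, 4.04, 0.932 and 12.9 CPM on day 3, at 3064, 503, 1195 and 300.1 CPM on day 7 and at 6.14, 174, 453 and 24.9 CPM on day 14. Myh1 was lowest of the intact rats of day 7 in rat 3. Myh2 stood at 1.63, 0.762 and 0.565 CPM in the 3 intact rats of day 3, at 1046, 601, 793 and 101 CPM in the 4 of day 7 and at 3868, 1.75, 472 and 1679 CPM in the 4 of day 14. Myh2 in the transected rats was at 0.986, 0.475, 0.699 and 1.07 CPM on day 3, at 3734, 295, 100.2 and 11.2 CPM on day 7 and at 4.25, 32.8, 1317 and 14.99 CPM on day 14. Rats of 1 group thus differed by more than 10 times in Myh2 at day 7 in both arms.

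Myh7 had few counts at day 3 and at most 381 in any later rat. Its whole counts at day 3 were 0, 2 and 0 in the intact rats and 0, 2, 0 and 23 in the transected rats. Myh7 stood at 18.7, 2.60, 4.66 and 5.51 CPM in the intact rats of day 7 and at 8.20, 0, 0.747 and 4.30 CPM in those of day 14. Myh7 in the transected rats was at 11.4, 0.596, 0.733 and 0 CPM on day 7 and at 0, 0.620, 1.21 and 0 CPM on day 14. The highest level, in intact rat 1 of day 7, was 18.7 CPM, and Myh7 made up 0.891% of the 42778 counts of the 4 adult heavy chains there (95% exact binomial interval 0.804% to 0.984%, which covers counting error only). In transected rat 4 of day 7 it had 0 of 5633 counts, which allows a share of up to 0.0533%. The largest share, 7.99%, was in transected rat 4 of day 3, from 23 of 288 counts.

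The mix of adult heavy chains varied widely between rats of a group. Myh2 made up 49.9, 13.0, 74.5 and 1.98% of the adult heavy chain counts in the intact rats of day 7 and 53.1, 35.0, 6.77 and 3.11% in the transected rats. At day 14 its share was 67.4, 6.51, 13.9 and 44.3% in the intact rats and 39.1, 14.98, 73.1 and 36.3% in the transected rats. Myh2 therefore led in some rats and Myh1 in others within 1 arm and day. Myh4 held 4.22, 3.43, 1.05 and 21.2% in the intact rats of day 7 and 3.17, 5.33, 12.5 and 14.0% in the transected rats. These shares of counts were not corrected for length, and no test was made on them.

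**Figure D3:**
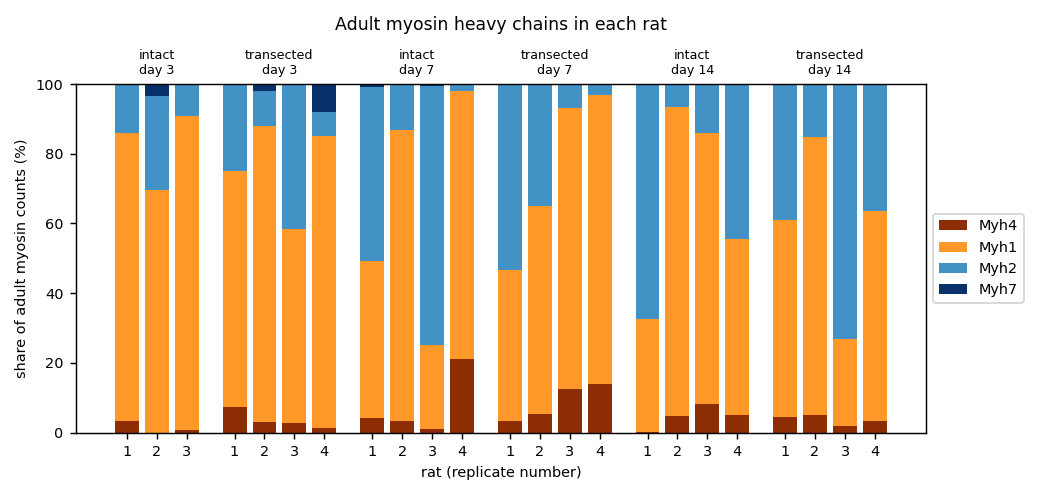
Share of the counts of the 4 adult myosin heavy chains held by Myh4, Myh1, Myh2 and Myh7 in each rat (bars, in percent, by group). Myh7 is hardly visible from day 7 on, and the Myh2 part ranges from 1.98% to 74.5% among the intact rats of day 7. Bars of day 3 rest on 36 to 288 counts.

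Light chains bind the neck of each myosin head. Mylpf, the regulatory light chain of fast fibres, stood at 8.43, 3.43 and 13.1 CPM in the 3 intact rats of day 3, at 1522, 2226, 647 and 2047 CPM in the 4 of day 7 and at 2336, 22.1, 1502 and 1862 CPM in the 4 of day 14. Mylpf in the transected rats was at 2.49, 4.27, 0.932 and 85.9 CPM on day 3, at 3608, 515, 881 and 310.1 CPM on day 7 and at 28.8, 168, 716 and 40.3 CPM on day 14. It followed Acta1 from rat to rat, with transected rat 4 high at day 3 and intact rat 2 low at day 14. Myl2, the regulatory light chain of slow fibres and ventricle, had whole counts of 0, 0 and 1 in the intact rats and 0, 2, 0 and 0 in the transected rats at day 3. Myl2 stood at 27.0, 4.69, 9.66 and 12.5 CPM in the intact rats of day 7 and at 51.0, 0, 0.976 and 13.8 CPM in those of day 14. Myl2 in the transected rats was at 17.3, 0.704, 0.391 and 0.193 CPM on day 7 and at 0.409, 0.395, 6.29 and 0.833 CPM on day 14. At day 7 the share of Myl2 in the counts of Myl2 and Mylpf lay between 0.0443% and 1.74%. Myl3, the essential light chain of slow fibres and ventricle, had at most 3 counts in any rat of day 3. Myl3 stood at 4.80, 2.03, 1.71 and 1.61 CPM in the intact rats of day 7 and at 53.7, 0.1, 0.747 and 20.3 CPM in those of day 14. Myl3 in the transected rats was at 12.9, 3.85, 0.342 and 0 CPM on day 7 and at 0.245, 1.30, 6.51 and 0.185 CPM on day 14. Its highest value was in intact rat 1 of day 14, and intact rat 4 of that day was the only other rat above 12.9 CPM.

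Troponin I, T and C hold the thin filament shut until calcium binds troponin C, and each has a fast and a slow gene. Tnni2, fast troponin I, stood at 3.01, 0.714 and 1.39 CPM in the 3 intact rats of day 3, at 420.2, 652, 219 and 829 CPM in the 4 of day 7 and at 838, 8.85, 484 and 645 CPM in the 4 of day 14. Tnni2 in the transected rats was at 1.04, 1.38, 0.792 and 8.46 CPM on day 3, at 1396, 182, 329 and 104 CPM on day 7 and at 7.69, 59.0, 249 and 10.9 CPM on day 14. Every rat of day 7 was above 100 CPM and every rat of day 3 below 10. Tnni1, slow troponin I, stood at 2.22, 1.76 and 4.57 CPM in the 3 intact rats of day 3, at 392, 525, 132 and 163 CPM in the 4 of day 7 and at 368, 2.60, 299.7 and 235 CPM in the 4 of day 14. Tnni1 in the transected rats was at 0.754, 2.09, 0.559 and 47.0 CPM on day 3, at 492, 61.0, 313 and 48.4 CPM on day 7 and at 4.99, 35.3, 85.2 and 6.48 CPM on day 14. Transected rat 4 of day 3 came close to the lowest rat of day 7 for Tnni1 but not for Tnni2. Tnnt3, fast troponin T, stood at 17.3, 11.3 and 18.2 CPM in the 3 intact rats of day 3, at 1881, 2702, 743 and 3804 CPM in the 4 of day 7 and at 3037, 52.6, 2375 and 2754 CPM in the 4 of day 14. Tnnt3 in the transected rats was at 9.92, 16.3, 13.4 and 63.3 CPM on day 3, at 5639, 633, 1459.6 and 495 CPM on day 7 and at 35.8, 223, 1012 and 54.6 CPM on day 14. Day-3 and day-7 rats did not overlap for Tnnt3. Tnnt1, slow troponin T, stood at 2.22, 1.05 and 2.41 CPM in the 3 intact rats of day 3, at 199, 101, 96.7 and 43.5 CPM in the 4 of day 7 and at 239.7, 2.65, 31.9 and 46.7 CPM in the 4 of day 14. Tnnt1 in the transected rats was at 0.928, 1.19, 0.326 and 14.7 CPM on day 3, at 283, 19.1, 25.5 and 16.6 CPM on day 7 and at 1.31, 13.9, 25.4 and 4.53 CPM on day 14. Among the transected rats of day 14 none exceeded 25.4 CPM. Tnnc2, fast troponin C, stood at 4.51, 0.809 and 2.62 CPM in the 3 intact rats of day 3, at 821, 1193, 410.2 and 1641 CPM in the 4 of day 7 and at 1572, 18.96, 1001 and 1207 CPM in the 4 of day 14. Tnnc2 in the transected rats was at 0.812, 1.14, 0.979 and 8.72 CPM on day 3, at 2443, 364, 670.2 and 232 CPM on day 7 and at 16.1, 115, 452 and 23.6 CPM on day 14. It kept the order of rats seen for Tnni2 in the transected arm of day 7. Tnnc1, the troponin C of slow fibres and heart, stood at 1.504, 1.000 and 2.46 CPM in the 3 intact rats of day 3, at 86.8, 84.6, 30.6 and 22.8 CPM in the 4 of day 7 and at 48.8, 4.15, 35.0 and 28.3 CPM in the 4 of day 14. Tnnc1 in the transected rats was at 1.62, 0.522, 0.513 and 13.3 CPM on day 3, at 98.2, 6.99, 63.6 and 9.06 CPM on day 7 and at 1.96, 5.58, 9.94 and 5.37 CPM on day 14. The highest day-3 rat lay above the lowest day-7 rat for Tnnc1 in the transected arm.

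Calcium handling members repeated this pattern. Atp2a1, the calcium pump that refills the reticulum of fast fibres, stood at 4.38, 2.33 and 4.21 CPM in the 3 intact rats of day 3, at 1725, 2929, 725 and 4163 CPM in the 4 of day 7 and at 4425, 26.4, 2418 and 2494 CPM in the 4 of day 14. Atp2a1 in the transected rats was at 1.91, 1.95, 1.54 and 22.1 CPM on day 3, at 6774, 897, 962 and 271 CPM on day 7 and at 16.2, 159, 1229 and 42.7 CPM on day 14. Again intact rat 2 and transected rats 1 and 4 were lowest at day 14. Casq1, the calcium store protein of fast fibres, stood at 2.42, 1.05 and 2.46 CPM in the 3 intact rats of day 3, at 523, 896, 269.8 and 761 CPM in the 4 of day 7 and at 1156, 7.65, 549 and 521 CPM in the 4 of day 14. Casq1 in the transected rats was at 1.51, 2.09, 1.119 and 7.92 CPM on day 3, at 1747, 179, 269 and 77.2 CPM on day 7 and at 4.17, 37.4, 300.3 and 12.1 CPM on day 14. Its day-3 and day-7 rats did not overlap in either arm. Casq2, the calsequestrin of slow fibres and heart, stood at 1.44, 1.29 and 3.95 CPM in the 3 intact rats of day 3, at 496, 620.1, 185 and 158 CPM in the 4 of day 7 and at 346, 1.70, 223 and 251 CPM in the 4 of day 14. Casq2 in the transected rats was at 0.928, 1.28, 2.47 and 24.03 CPM on day 3, at 834, 109.9, 170.2 and 33.9 CPM on day 7 and at 4.50, 32.9, 107 and 5.83 CPM on day 14. The rats of day 7 lay above those of day 3 for Casq2 in both arms. Pvalb, the calcium buffer of the fastest fibres, stood at 1.11, 0.0952 and 0.154 CPM in the 3 intact rats of day 3, at 44.4, 71.5, 15.8 and 703 CPM in the 4 of day 7 and at 319.8, 4.75, 296 and 285 CPM in the 4 of day 14. Pvalb in the transected rats was at 0.116, 0.142, 0 and 0.696 CPM on day 3, at 154, 38.6, 52.4 and 7.13 CPM on day 7 and at 3.60, 3.49, 65.6 and 1.57 CPM on day 14. Pvalb was highest in intact rat 4 of day 7, the rat that also held the most Myh4.

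The last 5 members are also used by cells outside striated muscle. Tpm1, a tropomyosin of muscle and of many other cells, stood at 349, 572 and 476 CPM in the 3 intact rats of day 3, at 1328, 2110.3, 892 and 2020.1 CPM in the 4 of day 7 and at 2449, 362, 1636 and 1778 CPM in the 4 of day 14. Tpm1 in the transected rats was at 424, 358, 928 and 432 CPM on day 3, at 3161, 945, 999.9 and 610.4 CPM on day 7 and at 298, 697, 952 and 409.7 CPM on day 14. Its range across all rats was much narrower than that of Acta1. Tpm2, another tropomyosin, stood at 165, 123 and 207 CPM in the 3 intact rats of day 3, at 943, 1545, 459 and 1384 CPM in the 4 of day 7 and at 1955, 62.6, 1185 and 1127 CPM in the 4 of day 14. Tpm2 in the transected rats was at 209, 106, 198 and 297 CPM on day 3, at 2678, 483, 626 and 256 CPM on day 7 and at 69.2, 226, 642 and 110.2 CPM on day 14. Tpm2 in intact rat 2 of day 14 was lower than in any rat of day 3. Tpm3, the tropomyosin of slow fibres and also a cytoskeletal one, stood at 502, 322 and 484 CPM in the 3 intact rats of day 3, at 267, 242, 181 and 277 CPM in the 4 of day 7 and at 254, 396, 232 and 257 CPM in the 4 of day 14. Tpm3 in the transected rats was at 531, 475, 364 and 504 CPM on day 3, at 182, 362, 261 and 344 CPM on day 7 and at 499.8, 241, 461 and 455 CPM on day 14. Tpm3 ran the other way, with the intact rats of day 7 below those of day 3. Des, the intermediate filament desmin of muscle, stood at 242, 29.5 and 77.3 CPM in the 3 intact rats of day 3, at 975, 1534, 379.7 and 929.7 CPM in the 4 of day 7 and at 1379.7, 15.01, 1062 and 1148 CPM in the 4 of day 14. Des in the transected rats was at 20.3, 52.1, 11.3 and 506 CPM on day 3, at 2134, 322, 717 and 295 CPM on day 7 and at 16.1, 151, 404 and 27.8 CPM on day 14. Desmin was already high in transected rat 4 and intact rat 1 of day 3. Cryab, a small heat shock protein that protects desmin, stood at 2.48, 1.81 and 2.31 CPM in the 3 intact rats of day 3, at 201, 224, 136 and 150.5 CPM in the 4 of day 7 and at 305, 8.80, 168 and 261 CPM in the 4 of day 14. Cryab in the transected rats was at 2.03, 89.9, 0.513 and 14.6 CPM on day 3, at 421, 34.5, 144 and 24.4 CPM on day 7 and at 5.24, 27.5, 52.2 and 9.34 CPM on day 14. Transected rat 2 of day 3 stood out for Cryab, and also for Mlip (51.1 CPM, against at most 0.326 CPM in the other rats of day 3). In that rat 7 marker genes of myelinating Schwann cells summed to 1752 CPM, against 59.4 to 128 CPM in the other rats of day 3, and the part of these markers in the Cryab and Mlip values was not tested.

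With the nerve intact, nearly all of the 42 genes rose from day 3 to day 7. All 42 passed the filter on low counts, 40 rose and 0 fell at an adjusted p under 0.05 in edgeR's quasi-likelihood test with Benjamini-Hochberg adjustment over all genes tested, where 4.88% of all genes tested rose. The median log2 fold change was 7.62 over the members and 0.05 over all 15016 genes tested. All 14 fast isoforms rose, with log2 fold changes from 7.23 (Tnnt3) to 11.29 (Myh4, from 7 counts in all 3 rats of day 3). All 3 slow isoforms rose, as did the 5 shared with the heart and the 15 genes of both fibre types, whose values lay between 6.72 (Ryr1, the calcium release channel) and 9.82 (Myot, a Z-disc protein). Of the 5 genes used outside muscle, Tpm1, Tpm2 and Cryab rose, while Des (3.07 ± 0.82 SE, adjusted p = 0.0715) and Tpm3 (-0.81 ± 0.22 SE, adjusted p = 0.0799) did not pass. The rats of day 7 lay wholly above those of day 3 for 41 members and wholly below them for Tpm3, against 12.7% of all genes tested that lay wholly above.

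Single members of the intact arm showed how large the day-7 rise was. Acta1 rose by 8.02 ± 0.76 (SE) on the log2 scale, with an adjusted p of 0.00317. Tnni2 rose by 8.33 ± 0.82 (SE) on the log2 scale, with an adjusted p of 0.00343. Tnni1 rose by 6.76 ± 0.75 (SE) on the log2 scale, with an adjusted p of 0.0053. Fast and slow troponin I thus both rose. Myh4 rose by 11.29 ± 2.28 (SE) on the log2 scale, with an adjusted p of 0.0335. For Myh7 the 3 rats of day 3 held 2 counts in all and the 4 rats of day 7 held 605, a ratio per count of library of 241 (95% counting interval 66.5 to 1996), and its adjusted p was 0.0186. The smallest adjusted p was shared by Cryab, Ckmt2, Ankrd23, Myot and Xirp2, and the members that follow are those of them with the smallest p. Cryab rose by 6.38 ± 0.28 (SE) on the log2 scale, with an adjusted p of 0.000505. Ckmt2, the mitochondrial creatine kinase of striated muscle, rose by 7.04 ± 0.35 (SE) on the log2 scale, with an adjusted p of 0.000505. Ankrd23, a protein of the titin spring region, rose by 7.33 ± 0.39 (SE) on the log2 scale, with an adjusted p of 0.000505. With 1 rat left out at a time the number of members called lay between 32 and 41, and that of all genes between 254 and 1547.

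From day 7 to day 14 with the nerve intact, no member passed the test. The median log2 fold change of the 42 members was -0.02, and 0 members had an unadjusted p under 0.05, against 9.42% of all genes. The test called 0.0202% of all genes. DESeq2 also called 0 members and 2.05% of the genes to which it gave an adjusted p. Acta1, at 0.17 ± 1.03 (SE) on the log2 scale, had an adjusted p of 0.976. Tnni2, at -0.07 ± 0.98 (SE) on the log2 scale, had an adjusted p of 0.993. Tnni1, at -0.39 ± 1.05 (SE) on the log2 scale, had an adjusted p of 0.932. These standard errors came with rats at 6.64, 0.165, 3.24 and 3.94% of counts in this group. Myh4, at -1.44 ± 1.59 (SE) on the log2 scale, had an adjusted p of 0.801. Myh7, at -1.23 ± 1.22 (SE) on the log2 scale, had an adjusted p of 0.77. Tpm3, at 0.26 ± 0.22 (SE) on the log2 scale, had an adjusted p of 0.722.

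Compared with day 3, 28 of the 42 members were higher at day 14 in the intact arm and 0 were lower, where 2.69% of all genes were called higher. The median log2 fold change was 7.66. Of the fast isoforms 12 of 14 rose, of the genes of both fibre types 13 of 15, of the slow isoforms 1 of 3 (Mybpc1, slow myosin binding protein C), of those shared with the heart 1 of 5 (Tnnc1) and of those used outside muscle 1 of 5 (Cryab). This count changed with single rats, as did the count over all genes. Without intact rat 2 of day 14 it was 41 higher and 1 lower, and without any other single rat of the comparison it was 0. The fit without intact rat 2 of day 14 called 3133 of 14898 genes, and the other leave-out fits called between 0 and 257 genes. The rats of day 14 lay wholly above those of day 3 for 31 members, against 10.7% of all genes. Acta1 rose by 8.16 ± 1.64 (SE) on the log2 scale, with an adjusted p of 0.0422. Tnni2 rose by 8.22 ± 1.64 (SE) on the log2 scale, with an adjusted p of 0.0422. Tnni1, at 6.33 ± 1.54 (SE) on the log2 scale, had an adjusted p of 0.0566. Only the fast troponin I of this pair passed, and the difference between the pair was not tested in this fit. Myh4, at 9.80 ± 2.38 (SE) on the log2 scale, had an adjusted p of 0.0561. Tpm3, at -0.59 ± 0.25 (SE) on the log2 scale, had an adjusted p of 0.174. Myh7 went from 2 counts in all to 238, a ratio of 95.8 (95% counting interval 26.2 to 796), with an adjusted p of 0.104. The smallest adjusted p belonged to Mlip, a lamin-interacting protein of muscle, whose counts went from 1 to 2314 (ratio 1863, 95% counting interval 334 to 73599.9, adjusted p = 0.031). Myoz1, a Z-disc protein of fast fibres, rose by 8.84 ± 1.64 (SE) on the log2 scale, with an adjusted p of 0.0411. Cryab rose by 6.42 ± 1.21 (SE) on the log2 scale, with an adjusted p of 0.0411.

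After transection, most fast isoforms rose from day 3 to day 7 and the slow isoforms did not pass the test, with the table of the day-7 rats as a difference that cannot be told apart from time. Of the 42 members 40 passed the filter, 20 rose and 0 fell, where 3.68% of all genes rose, and the median log2 fold change was 6.09. These were 13 of 14 fast isoforms, all except Mylpf (adjusted p = 0.0679), and 7 of 15 genes of both fibre types. None of the 3 slow isoforms (median 4.34), none of the 3 tested of those shared with the heart (median 3.49) and none of the 5 used outside muscle (median 2.32) passed. The difference between classes was not tested. Without transected rat 4 of day 3 the count was 29, which included 2 of 3 slow isoforms and 1 of those shared with the heart, and the class medians were then 9.23 for fast and 7.64 for slow isoforms. It was 11 without transected rat 2 of day 3, and 0 without transected rat 1 of day 3 or rat 3 of day 7. Over all genes these fits called 686 of 14814, 508 of 14737, 0 of 14820 and 3 of 14730, in this order. The rats of day 7 lay wholly above those of day 3 for 31 members, against 9.16% of all genes.

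Among the members tested in the transected arm at day 7, Myh4 rose by 9.49 ± 0.86 (SE) on the log2 scale, with an adjusted p of 0.014. Tnni2 rose by 7.44 ± 1.32 (SE) on the log2 scale, with an adjusted p of 0.0174. Tnni1, at 4.19 ± 1.60 (SE) on the log2 scale, had an adjusted p of 0.131. The value for Tnni1 was the smaller of this pair and did not pass. Acta1, at 5.93 ± 2.0 (SE) on the log2 scale, had an adjusted p of 0.0967. Myh7, at 3.27 ± 1.82 (SE) on the log2 scale, had an adjusted p of 0.273. Tpm3, at -0.72 ± 0.23 (SE) on the log2 scale, had an adjusted p of 0.0853. As in the intact arm, only Tpm3 of the tested members had a value below 0. Besides Myh4, the smallest adjusted p belonged to Mb, the oxygen store myoglobin, and to Xirp2, a protein of the cell junctions of muscle. Mb rose by 9.68 ± 1.30 (SE) on the log2 scale, with an adjusted p of 0.014. Xirp2 rose by 8.88 ± 1.33 (SE) on the log2 scale, with an adjusted p of 0.014.

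From day 7 to day 14 after transection, 39 of the 40 members tested had lower means and none passed. The median log2 fold change was -2.66, against -0.01 over all genes, and 12 members had an unadjusted p under 0.05, against 23.5% of all genes. The test called 0.0138% of all genes. DESeq2 called 5 members lower and 12.7% of the genes to which it gave an adjusted p. Acta1, at -2.36 ± 1.35 (SE) on the log2 scale, had an adjusted p of 0.318. Myh4, at -3.52 ± 1.18 (SE) on the log2 scale, had an adjusted p of 0.144. Tnni1, at -2.80 ± 1.10 (SE) on the log2 scale, had an adjusted p of 0.178. None of these passed the test, although all 3 means were lower. Tnni2, at -2.63 ± 1.25 (SE) on the log2 scale, had an adjusted p of 0.241. Tpm3, at 0.53 ± 0.30 (SE) on the log2 scale, had an adjusted p of 0.316. Myh7 did not pass the filter in this comparison. The median was -1.06 with 2 members at an unadjusted p under 0.05 without transected rat 1 of day 7, and -4.21 with 38 without transected rat 3 of day 14. The count at that p was 2, 3 and 2 without transected rats 1, 2 and 4 of day 14 and 5 without rat 3 of day 7. It was 37 with library totals as scale, and in these cases 0 members were called. Over all genes, between 2380 and 3885 had such a p in these fits, and 3397 in the main fit.

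Compared with day 3, 16 members were higher at day 14 after transection and 0 were lower, of 38 that passed the filter, where 8.89% of all genes were called higher. They were 10 of 13 fast isoforms tested and 6 of 15 genes of both fibre types. The class medians were 5.38 for fast isoforms, 1.36 for slow isoforms, 1.41 for the 2 tested of those shared with the heart and -0.01 for those used outside muscle. Without transected rat 4 of day 3 the slow median was 4.80 and 1 of 3 slow isoforms passed, where 1949 of 14685 genes were called. The count of members was 2, 4 and 7 without transected rats 1, 2 and 3 of day 3, and 8 without transected rat 3 of day 14. Over all genes these fits called 1620 of 14720, 1815 of 14626, 2861 of 14622 and 2207 of 14681, in this order. Without overlap, 12 members were higher, against 10.6% of all genes. Tnni2 rose by 4.77 ± 1.38 (SE) on the log2 scale, with an adjusted p of 0.0397. Tnni1, at 1.35 ± 1.5 (SE) on the log2 scale, had an adjusted p of 0.534. Acta1, at 3.53 ± 1.80 (SE) on the log2 scale, had an adjusted p of 0.185. Of these, Tnni2 passed. Tpm3, at -0.22 ± 0.25 (SE) on the log2 scale, had an adjusted p of 0.539. Xirp2 rose by 6.18 ± 1.19 (SE) on the log2 scale, with an adjusted p of 0.0112. Mb rose by 7.44 ± 1.48 (SE) on the log2 scale, with an adjusted p of 0.0125. Myot rose by 7.43 ± 1.61 (SE) on the log2 scale, with an adjusted p of 0.0164. The last 3 had the smallest adjusted p of the members.

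**Figure D4:**
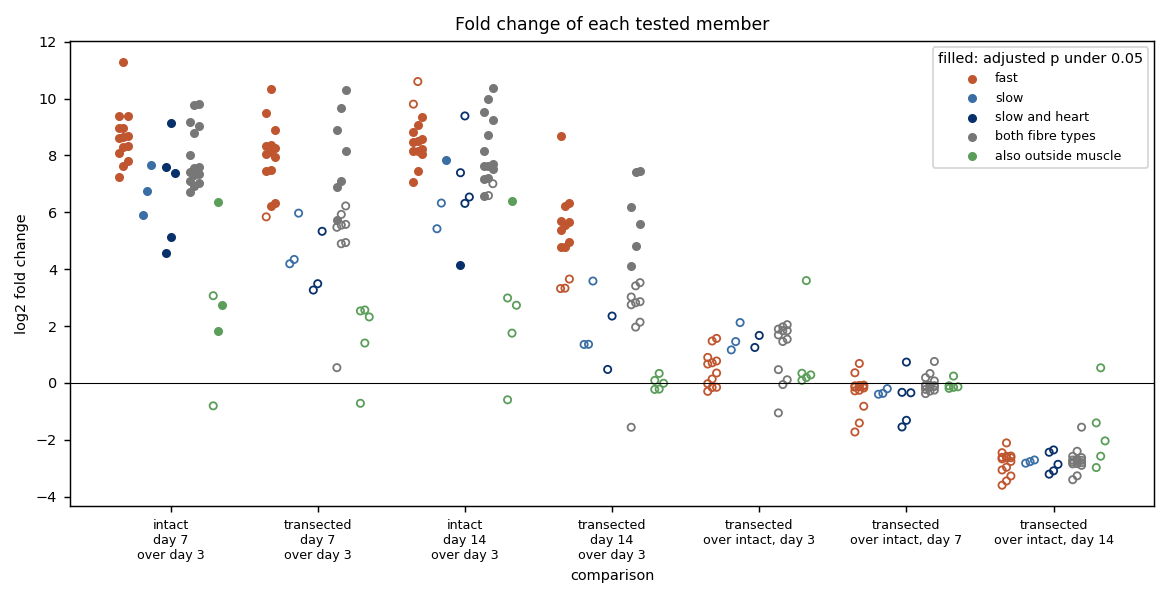
Log2 fold change of each tested member (points, coloured by class) in 4 comparisons of days and 3 comparisons of transected over intact rats. Filled points passed an adjusted p under 0.05. The points of day 7 over day 3 lie mostly between 4 and 11, and the classes overlap there. Those of transection scatter about 0 at day 7 and lie near -2.72 at day 14, all open.

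Whether loss of the sensory nerve altered these genes was asked on each day, and no member passed on any day. At day 3, 34 members passed the filter, and their median log2 fold change of transected over intact rats was 0.83, with 0 members at an unadjusted p under 0.05, against 0.83% of all genes. The test called 0.0% of all genes, and DESeq2 called 0 members and 0.0% of genes. The sign rested on transected rat 4, without which the median was -0.93, with 7 members at an unadjusted p under 0.05 and 0 called. In that fit 211 of 14596 genes had such a p. Acta1, at 1.84 ± 1.70 (SE) on the log2 scale, had an adjusted p of 1. Tnni1, at 2.12 ± 1.64 (SE) on the log2 scale, had an adjusted p of 1. Tnni2, at 0.77 ± 0.97 (SE) on the log2 scale, had an adjusted p of 1. Tpm3, at 0.09 ± 0.19 (SE) on the log2 scale, had an adjusted p of 1. Myh4 and Myh7 did not pass the filter at day 3. In transected rat 4 the embryonic myosin Myh3 was at 143 CPM, against 0.419 to 12.2 CPM in the other rats of day 3. The myogenic regulator Myog was at 124 CPM there, against 0.233 to 9.48 CPM. Their part in the day-3 values was not tested.

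At day 7, where transection and the separate table cannot be told apart, all 42 members passed the filter and the median log2 fold change was -0.14, with 0 members at an unadjusted p under 0.05, against 1.46% of all genes. The test called 0.0% of all genes, and DESeq2 called 0 members and 0.00529% of genes. Here transected rat 1, the rat with the most sarcomere RNA of all 23, decided the value, and without it the median was -1.57 with 25 members at an unadjusted p under 0.05 and 0 called. Over all genes, 1604 of 14904 had such a p without that rat. Acta1, at -0.23 ± 0.97 (SE) on the log2 scale, had an adjusted p of 1. Myh4, at -1.41 ± 1.18 (SE) on the log2 scale, had an adjusted p of 1. Myh7, at -1.32 ± 1.32 (SE) on the log2 scale, had an adjusted p of 1. The values of these genes did not pass the test. Tnni1, at -0.40 ± 0.79 (SE) on the log2 scale, had an adjusted p of 1. Tnni2, at -0.08 ± 0.79 (SE) on the log2 scale, had an adjusted p of 1. Tpm3, at 0.24 ± 0.24 (SE) on the log2 scale, had an adjusted p of 1.

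At day 14, 41 of the 42 members had lower means after transection, all except Tpm3 (log2 value 0.53, and -0.04 with library totals as scale), but the rats overlapped for every member. The median log2 fold change was -2.72, against 0.03 over all genes. No member passed, 7 had an unadjusted p under 0.05, against 9.32% of all genes, and the test called 0.0% of all genes. DESeq2 called 0 members and 0.668% of the genes to which it gave an adjusted p. Without adjustment, 38 members and 2267 of 20022 genes had a p under 0.05 in DESeq2. The class medians were -2.66 for fast isoforms, -2.77 for slow isoforms, -2.86 for those shared with the heart, -2.74 for genes of both fibre types and -2.04 for those used outside muscle. Acta1, at -2.71 ± 1.44 (SE) on the log2 scale, had an adjusted p of 0.521. Myh4, at -3.45 ± 1.68 (SE) on the log2 scale, had an adjusted p of 0.519. Myh7, at -2.86 ± 1.57 (SE) on the log2 scale, had an adjusted p of 0.526. Both fast and slow heavy chains thus had lower means that did not pass. Tnni1, at -2.77 ± 1.35 (SE) on the log2 scale, had an adjusted p of 0.519. Tnni2, at -2.58 ± 1.42 (SE) on the log2 scale, had an adjusted p of 0.527. Tpm3, at 0.53 ± 0.27 (SE) on the log2 scale, had an adjusted p of 0.519. Without intact rat 2 the median was -3.16 with 37 members at an unadjusted p under 0.05, and without transected rat 3 it was -4.53 with 40, but no member was called in either case. Over all genes, 3235 of 14809 and 1903 of 14914 had such a p in these fits.

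Markers of bone, marrow and nerve cells also differed between the rats of day 14. The 6 osteoclast markers summed to 2236, 3337, 2199 and 1444 CPM in the intact rats and 6646, 12484, 1157 and 12163 CPM in the transected rats. The 7 osteoblast markers summed to 861, 2489.7, 1048 and 663 CPM in the intact rats and 3145, 6884, 816 and 4276 CPM in the transected rats. The 7 neutrophil markers summed to 374, 6127, 80.2 and 1537 CPM in the intact rats and 1041, 146, 662 and 4313 CPM in the transected rats. The 7 markers of myelinating Schwann cells summed to 2714, 274, 525 and 1061 CPM in the intact rats and 201, 124, 285 and 157 CPM in the transected rats. For these, as for most sarcomere genes, intact rat 2 was the lowest of the intact rats and lay within the range of the transected rats. Intact rat 2 had the highest osteoblast, osteoclast and neutrophil sums of the intact group and the lowest sarcomere levels, and transected rat 3 had the lowest osteoblast and osteoclast sums of its group and the highest sarcomere levels. The part of these cells in the sarcomere values was not tested.

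The change of the transection effect between days was tested directly, and no member passed. Between day 3 and day 7 the median difference was -0.87, 1 member (Mlip) had an unadjusted p under 0.05 against 0.85% of all genes, and 0.0% of all genes were called. DESeq2 called 0 members and 0.00513% of genes. Between day 7 and day 14 the median difference was -2.50, 0 members had an unadjusted p under 0.05 against 3.83% of all genes, and 0.0% of all genes were called. DESeq2 called 0 members and 0.0% of genes. Single rats moved both medians. For day 7 minus day 3 the median was 0.58 with 1 member at an unadjusted p under 0.05 without transected rat 4 of day 3, -2.40 with 11 members without transected rat 1 of day 7, -0.52 without transected rat 4 of day 7 and -1.50 without intact rat 1 of day 3. For day 14 minus day 7 it was -4.16 with 32 members without transected rat 3 of day 14, -1.13 with 0 without transected rat 1 of day 7 and -2.91 with 10 without intact rat 2 of day 14, and -3.36 with 28 with library totals as scale. No member was called in any of these cases. Over all genes, 622 of 15460 had an unadjusted p under 0.05 in the fit with 11 members. In the fits with 32, 10 and 28 members it was 1056 of 15474, 1310 of 15455 and 1041 of 15291 genes. For Acta1 the differences on the log2 scale were -2.06 ± 1.98 (SE) and -2.50 ± 1.78. For Tnni2 they were -0.86 ± 1.33 and -2.52 ± 1.67. For Tnni1 they were -2.53 ± 1.80 and -2.37 ± 1.60. None of these passed the test. For Myh4 they were -1.75 ± 2.35 and -2.04 ± 2.06. For Myh7 they were -4.29 ± 2.65 and -1.56 ± 2.13. For Tpm3 they were 0.13 ± 0.32 and 0.29 ± 0.38.

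Slow and fast isoforms of 1 protein were also compared within each rat, as the slow gene's share of the counts of both, which takes out the total of the pair. For troponin C the share of Tnnc1 was 25.0, 55.3 and 48.5% in the intact rats and 66.7, 31.4, 34.4 and 60.4% in the transected rats at day 3. By day 7 it was 9.56, 6.62, 6.95 and 1.37% in the intact rats and 3.86, 1.88, 8.67 and 3.75% in the transected rats. By day 14 it was 3.01, 18.0, 3.38 and 2.29% in the intact rats and 10.9, 4.62, 2.15 and 18.5% in the transected rats. Day-3 and day-7 rats did not overlap in either arm, and the 3 rats of day 14 with the least sarcomere RNA had the 3 highest shares of that day. The Tnnc1 shares rested on 32 to 412 counts of the pair per rat at day 3 and on 3759 to 45211 at day 7. The 95% exact binomial intervals, which cover counting error only, reached down to 16.6% at day 3 and up to 9.99% at day 7. Those 3 rats of day 14 had 221 to 462 counts of the pair. For troponin I the share of Tnni1 was 42.5, 71.2 and 76.7% in the intact rats and 41.9, 60.3, 41.4 and 84.8% in the transected rats at day 3. At day 7 it was 48.3, 44.6, 37.6 and 16.4% in the intact rats and 26.1, 25.2, 48.7 and 31.7% in the transected rats. At day 14 it was 30.5, 22.7, 38.2 and 26.7% in the intact rats and 39.4, 37.4, 25.5 and 37.2% in the transected rats. Transected rat 4 of day 3 had the highest share of all, 84.8% (95% exact binomial interval 82.4% to 86.9%), whereas transected rat 3 of that day gave 41.4% from 29 counts (interval 23.5% to 61.1%). For troponin T the share of Tnnt1 was 11.4, 8.46 and 11.7% in the intact rats and 8.56, 6.78, 2.38 and 18.9% in the transected rats at day 3. At day 7 it was 9.58, 3.59, 11.5 and 1.13% in the intact rats and 4.78, 2.93, 1.72 and 3.24% in the transected rats. At day 14 it was 7.32, 4.80, 1.32 and 1.67% in the intact rats and 3.52, 5.88, 2.45 and 7.67% in the transected rats. The Tnni1 and Tnnt1 ranges overlapped in every comparison tested, and shares of day 14 were not tested against those of day 3. Between these days the Tnnt1 ranges did not overlap in the intact rats and did overlap in the transected rats. The Tnni1 and Tnnc1 ranges of days 3 and 14 did not overlap in either arm.

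No share passed after adjustment over the 35 tests, 5 shares in 7 comparisons, by the two-sided exact permutation test over rats. The smallest p that 4 rats against 4 allow is 0.0286 and that of 3 against 4 is 0.0571, so no single test could reach an adjusted p under 0.05. The difference of the Tnnc1 share from day 3 to day 7 reached this smallest p in both arms. In the transected rats it went from 48.2% ± 17.9 to 4.54% ± 2.90 (SD, n = 4 and 4, exact permutation p = 0.0286, adjusted 0.5). In the intact rats it went from 42.9% ± 15.9 to 6.13% ± 3.43 (SD, n = 3 and 4, exact permutation p = 0.0571, adjusted 0.5). The Tnni1 share went from 57.1% ± 20.4 to 32.9% ± 10.9 in the transected rats over the same days (SD, n = 4 and 4, exact permutation p = 0.0857, adjusted 0.571). Transection at day 14 gave Tnni1 shares of 29.5% ± 6.61 in intact and 34.9% ± 6.31 in transected rats (SD, n = 4 and 4, exact permutation p = 0.343, adjusted 0.8). The Myl2 and Myh7 shares were at most 2.17% and 7.99% in any rat.

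**Figure D5:**
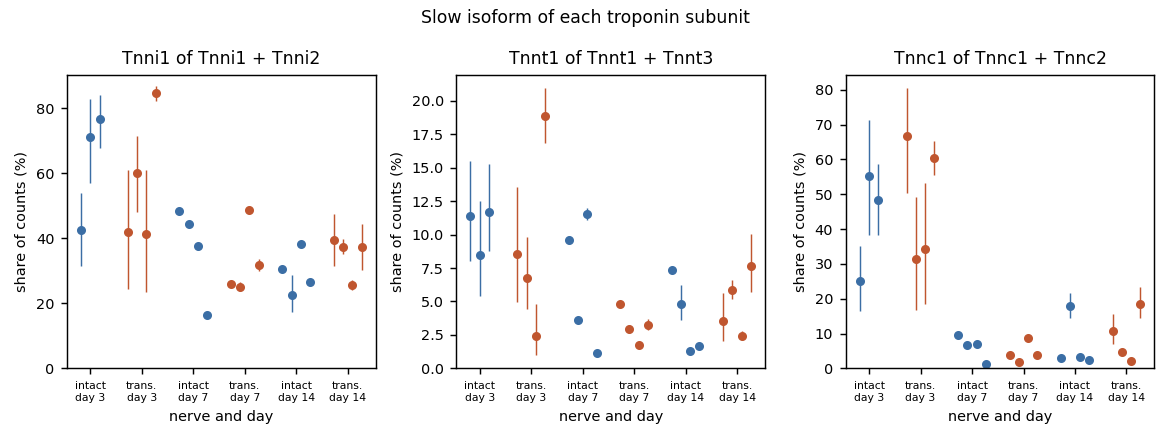
Share of the counts of each troponin pair held by the slow gene (percent, y axis from 0) in each rat, by nerve and day, for troponin I, T and C. Points are rats, blue for intact and orange for transected, with 95% exact binomial intervals that cover counting error only. The Tnnc1 share lies between 25.0% and 66.7% at day 3 and below 10% at day 7.

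Most of a further list of muscle genes also rose from day 3 to day 7 with the nerve intact, and fewer did in the other comparisons. Of 46 other genes of sarcomeres, calcium release and muscle metabolism, 41 rose and 0 fell from day 3 to day 7 in the intact arm, where 4.88% of all genes rose, and 22 rose and 0 fell in the transected arm, where 3.68% did. From day 3 to day 14, 19 rose and 0 fell in the intact arm, against 2.69% of all genes that rose. Their adjusted p in edgeR's test lay between 0.0411 and 0.0491. Over all genes that fit called 871, and between 0 and 257 when a rat other than intact rat 2 of day 14 was left out. In the transected arm 7 of 45 rose over the same days, against 8.89% of all genes, among them Nrap, a scaffold of growing myofibrils, by 6.07 ± 1.45 (SE) on the log2 scale and Trdn, a partner of the calcium release channel, by 5.31 ± 1.37. The gene that fell was Atp2a2, the calcium pump of slow fibres, heart and most other cells, at -0.81 ± 0.20 (SE, adjusted p = 0.0224). These genes were named after their values were seen.

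Embryonic and perinatal myosins and the regulators of muscle formation were a list of 10. In the intact arm 6 of them rose from day 3 to day 7, against 4.88% of all genes, which were the embryonic myosin Myh3 (log2 fold change 7.31 ± 1.02, SE), the perinatal myosin Myh8 (9.79 ± 0.77), the regulators Myf6 (7.26 ± 0.57) and Myog (3.54 ± 0.60) and the membrane fusion proteins Mymk (5.16 ± 0.83) and Mymx (3.50 ± 0.78). In the transected arm, where 3.68% of all genes rose, 2 did, Myh8 (10.83 ± 1.39) and Myf6 (5.97 ± 1.35). From day 3 to day 14 Myh8 rose in both arms, by 9.82 ± 1.81 in the intact and 7.02 ± 1.22 in the transected rats, and no other gene of the list passed, against 2.69% and 8.89% of all genes that rose. Myh8 was at 2.03, 1.24 and 2.002 CPM in the intact rats of day 3, at 1477, 2749, 552 and 1308 CPM in those of day 7 and at 1328, 17.7, 1861 and 3050.0 CPM in those of day 14. Among transected rats Myh8 was at 0.812, 1.04, 1.07 and 1.77 CPM, then at 6710.4, 639, 1020.1 and 251 CPM and then at 10.3, 200.3, 387 and 31.3 CPM. At day 14 intact rat 2 was the lowest of its arm for Myh8, as for Acta1. Myh3 and Myh8 are also close copies of each other and of the adult chains, so their split is uncertain.

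The 9 isoforms held to be restricted to the adult heart summed to between 7.12 and 1931 CPM. Most of the highest sum was Actc1, cardiac alpha-actin, which developing skeletal muscle also uses and which was at 901, 1321, 247 and 683 CPM in the intact rats of day 7. Of the 5 genes of the list that passed the filter 3 rose from day 3 to day 7 in the intact arm, where 4.88% of all genes did, namely Actc1 by 5.45 ± 0.69 (SE), the atrial light chain Myl4 by 6.40 ± 0.94 and Tnnt2 by 3.52 ± 0.68 on the log2 scale. From day 3 to day 14 Myh6 was called higher there, where 2.69% of all genes were, and went from 3 counts in all to 194. Its log2 fold change of 5.49 ± 1.13 (SE, adjusted p = 0.0434 in edgeR's test) is limited by those few counts. In the transected arm none of the 4 tested was called over either span. The 7 smooth muscle genes summed to between 120.4 and 1035 CPM, with the lowest sum in intact rat 2 of day 14. In the comparisons of transected with intact rats none of the muscle lists held a called gene on any day.

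Over all 23 rats the remaining marker lists ranged widely. The tooth list summed at day 3 to 4.64, 3789.8 and 23005 CPM in the intact and 6.56, 305, 11704 and 5.46 CPM in the transected rats, at day 7 to 1.22, 320.0, 773 and 3.98 CPM in the intact and 2.02, 2.65, 119 and 21.1 CPM in the transected rats and at day 14 to 0.219, 2.40, 0.345 and 0.287 CPM in the intact and 146, 0.338, 0.331 and 0.0925 CPM in the transected rats. The epithelium list summed at day 3 to 1.24, 889 and 468 CPM in the intact and 101, 254, 522 and 35.3 CPM in the transected rats, at day 7 to 0.294, 13.3, 346 and 0.763 CPM in the intact and 0.393, 0.379, 7.08 and 0.707 CPM in the transected rats and at day 14 to 0.383, 0.900, 5.23 and 0.401 CPM in the intact and 4.34, 1.24, 0.662 and 0.185 CPM in the transected rats. Both lists were thus highest in rats of day 3, when the sarcomere genes were low. In the transected arm Krt5, Krt14 and Krt17, the 3 epithelial genes tested, fell from day 3 to day 7, with log2 fold changes of -6.72 ± 1.40, -6.69 ± 1.43 and -7.49 ± 1.29 (SE), and were also lower at day 14. The tooth gene Odam fell there too, with -12.54 ± 2.66. The enamel genes Ambn and Amelx were lower at day 14 than at day 3 in both arms. Of all genes 6.77% fell from day 3 to day 7 in the transected arm, 14.6% from day 3 to day 14 there and 3.09% in the intact arm. The cartilage list summed to between 17.6 and 1422 CPM. The fibroblast list summed to between 19146 and 70018 CPM, macrophage to between 464 and 2507 and endothelial to between 255 and 1675. The adipocyte list lay between 44.6 and 672 CPM and the salivary gland list never exceeded 1.03 CPM. The single genes of the heart, epithelium and tooth lists were named after their values were seen. No listed gene was at 0 in all rats. The part of these cells in the sarcomere values was not tested.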

How the data were processed

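Tissue RNA of 23 rats was measured by sequencing on the DNBSEQ platform from an mRNA library kit. The deposited values were expected counts per gene, made by the authors from reads for which HISAT, Bowtie2 and the mRatBN7.2 build are named in the submitters' processing notes, while the counting program was not given in the sources used here. Both rat tables list the same 20022 genes. The 11 macrophage samples of the series were not used. How reads shared by near-identical paralogs were assigned is not stated, which limits values of single myosins and actins.

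Expected counts were rounded to whole numbers and fitted with edgeR 4.0.16 in R 4.3.3 (TMM factors, filterByExpr, quasi-likelihood test, prior count 0.125), each comparison on its own groups, with Benjamini-Hochberg adjustment over all genes tested and a threshold of 0.05. The standard error of a log2 fold change was its size divided by the square root of F. DESeq2 1.42.0, other scalings, no filter, all 23 rats in 1 fit, the replicate number as a block and leaving out each rat were tried as alternatives. Isoform shares came from rounded counts, with a minimum of 20 counts per pair and rat, exact permutation tests over rats (scipy 1.17.1) and 95% exact binomial intervals. A count of 0 was taken to allow up to 3 counts. Figures were drawn with matplotlib 3.10.9.

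Levels were given for 24 members and tests for 6, fixed by name, and for the 3 members with the smallest adjusted p per direction among those called. Equal adjusted p were ordered by p. Members and lists were chosen with earlier results of these data known. Groups came from the labels. Each library is taken as 1 rat, and p-values measure the spread between these rats. Totals of 14854389 to 18742274 counts limit what can be said of genes at a few counts.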

Additional observations from a re-analysis of the deposited data

Results flagged for a closer look

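A rat was listed here by the gap between it and its nearest neighbour. The gap had to take up nearly the whole range of its group of 4 (Dixon's 95% critical value). Chance gives such a gap in about 1 of 20 groups of normally distributed values. The values here were not on a log scale and often spread widely within a group, so that rate does not apply to them. Counts of members are also not independent, because many members followed the same rats. The values searched were the percent of counts in the 42 genes, the levels of Acta1, Tnni2, Tnni1 and Tpm3 and the isoform shares. Over the levels of all 42 members, such a gap set apart a rat for 30 members among the transected rats of day 3 (rat 4 for 26, rat 2 for 3 and rat 3 for 1), 4 among the intact rats of day 7 (rat 4 for 3 and rat 1 for 1), 22 among the transected rats of day 7 (rat 1), 3 among the intact rats of day 14 (rat 2) and 17 among the transected rats of day 14 (rat 3). Most of the values below belong to the rats already described as standing apart.

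In transected rat 4 of day 3, Acta1 at 272 CPM, Tnni2 at 8.46 CPM and Tnni1 at 47.0 CPM lay far above the rest of the group. In transected rat 2 of day 3 the Myl2 share of its pair was 2.17%, from 2 Myl2 counts, and 0 in the other 3 rats.

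In transected rat 1 of day 7 the 42 genes took 9.21% of counts and Acta1 was at 13491 CPM. In transected rat 3 of day 14 Acta1 was at 2642 CPM, and the Tnni1 share, at 25.5%, was the lowest of its group. In intact rat 2 of day 14 Tpm3 was at 396 CPM and the Tnnc1 share was 18.0%, the highest of that group for both. No value here was set apart by a test between groups.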

How the results depend on the processing

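With single rats left out, the number of members called ran from 32 to 41 for day 7 over day 3 and from 0 to 42 for day 14 over day 3 with the nerve intact, and from 0 to 29 and from 2 to 19 for the same days after transection. Over all genes the calls ran from 254 to 1547, from 0 to 3133, from 0 to 1359 and from 1620 to 4346, in this order. With the replicate block the members called were 19, 0, 0 and 4, and the genes called in all were 122, 0, 2 and 2350, in the same order. Deviations of same-numbered rats from their group means had correlations between -0.358 and 0.415. In no comparison was every pair above 0.1, so the numbers were not taken as a pairing. For transection at day 7 every such pair was above 0, from 0.0309 to 0.314, with a mean of 0.178 against -0.0622 for other pairs. Day 7 over day 3 after transection gave 33 members with all 23 rats in 1 fit, where 2287 genes were called. DESeq2 gave 34 there, 33 higher and 1 lower, where 3262 genes were called. For day 14 over day 7 after transection DESeq2 gave 5 members, where 2012 genes were called. For the named genes, 394 of 432 log2 values under other settings kept direction and call, 17 lost and 12 gained the call and 9 changed direction. None of those that changed direction was past the threshold in the main fit. With the replicate block they were Acta1 -2.15, Tnni1 -1.42 and Tnni2 -0.49 for transection at day 3, Acta1 -0.07 for day 14 over day 7 with the nerve intact, Acta1 0.24 for the difference between day 7 and day 3 and Myh7 0.41 for that between day 14 and day 7. With library totals as scale, which took the median of all genes from 0.03 to -0.41 at day 14 without a call of any member, they were Tnni2 0.05 at day 7, Tpm3 -0.04 at day 14 and Tpm3 -0.25 for the difference between day 14 and day 7. With single rats left out 554 of 641 values kept direction and call, 51 lost and 9 gained the call and 27 changed direction, and the ranges of these genes were as follows. Transection at day 3 gave Acta1 -1.96 to 2.24, Tnni1 -1.32 to 2.63, Tnni2 -0.65 to 1.45 and Tpm3 -0.07 to 0.20. Transection at day 7 gave Acta1 -2.0 to 0.15, Myh4 -1.83 to 0.57 and Tnni2 -1.36 to 0.26. Day 14 over day 7 with the nerve intact gave Acta1 -0.41 to 0.58, Myh4 -2.26 to 0.53, Tnni1 -0.72 to 0.02 and Tnni2 -0.45 to 0.34. The difference between day 7 and day 3 of the transection effect gave Acta1 -3.85 to 1.74, Myh4 -3.89 to 0.21, Tnni1 -3.23 to 0.91 and Tnni2 -2.15 to 0.56. The difference between day 14 and day 7 of the transection effect gave Myh7 -2.46 to 1.2. The cause was not tested. Values of genes with a few counts at day 3, such as Myh4, Myh7 and Myl2, are limited by depth.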
